A study of Rattus norvegicus with 16 samples.

Results

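Cholesterol is built from acetyl-CoA by a chain of enzymes, and 8 genes of that system were followed here through liver and epididymal fat of diabetic rats. Of these, 7 encode enzymes of the chain (Hmgcs1, Idi1, Fdps, Sqle, Lss, Cyp51 and Dhcr7) and 1, Insig1, encodes a protein that restrains it. The genes were taken by symbol, and all 8 were found among the 22517 symbols of the deposited tables. Values of other genes of the pathway are given beside theirs.

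RNA was sequenced from 16 libraries, 4 for each combination of tissue and feed. All 8 rats were obese males of the strain ZDF/GmiCrl-fa/fa, which carries a defective leptin receptor on both chromosomes, so no lean or leptin-responsive animal stands beside them. They arrived at 7 weeks of age, ate Purina 5008 chow freely until 9 weeks (26.8% of calories as protein, 16.7% as fat and 56.4% as carbohydrate), and were then split at random for 2 weeks. The LA groups (liver LA and fat LA, 4 rats) received Purina 5008 with R-α-lipoic acid, a thiol compound that serves as an enzyme cofactor in mitochondria. The PF groups (liver PF and fat PF, 4 rats) received Purina 5008 alone, pair-fed. Feed was given as 2-day rations, and tissue was taken at 11 weeks of age under isoflurane. The dose of lipoic acid is not given in the sources used here, nor is which liver and fat library came from the same rat.

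In cells, Hmgcs1 makes HMG-CoA, from which mevalonate is formed; later enzymes convert mevalonate to isoprenoids, squalene, lanosterol and finally cholesterol. When membranes of the endoplasmic reticulum are short of sterol, the escort protein Scap carries the precursor of the transcription factor SREBP to the Golgi, where it is cut and released to activate most genes of the chain. Insig proteins hold Scap back when sterol is plentiful, and Insig1 is itself a target of SREBP. In the liver the chain feeds bile acids, lipoproteins and membranes, and in fat most stored cholesterol is thought to come from uptake.

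Promoter sequences are shown because the 8 genes moved together from liver to liver, as described below. The RefSeq table of the rat assembly GRCr8 held a promoter window (250 bases before to 50 after the annotated start) for 7 of the 8 genes. Hmgcs1, Fdps and Insig1 are printed as genes at the entry, the middle and the control point of the chain, and Cyp51 as a gene of the same behaviour in liver without a CCAAT box in its window. Each runs 5′ to 3′ on the strand of the gene, and capitals mark CCAAT, the letters bound by NF-Y, a factor that works beside SREBP, or the reverse complement ATTGG.
Hmgcs1, chr2:53382054-53382353, plus strand: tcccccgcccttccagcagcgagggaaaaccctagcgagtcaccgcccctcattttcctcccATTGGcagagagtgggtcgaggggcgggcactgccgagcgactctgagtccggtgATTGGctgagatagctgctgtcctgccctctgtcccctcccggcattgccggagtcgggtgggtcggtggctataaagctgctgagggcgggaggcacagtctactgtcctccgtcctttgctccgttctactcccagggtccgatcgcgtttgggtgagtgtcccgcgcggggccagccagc
Fdps, chr2:176804767-176805066, minus strand: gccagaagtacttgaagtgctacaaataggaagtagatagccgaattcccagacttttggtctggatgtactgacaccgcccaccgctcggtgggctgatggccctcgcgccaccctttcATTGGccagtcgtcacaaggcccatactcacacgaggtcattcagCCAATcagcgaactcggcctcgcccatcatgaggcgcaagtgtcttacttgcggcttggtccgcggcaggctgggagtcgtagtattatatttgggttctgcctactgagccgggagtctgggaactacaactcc
Cyp51, chr4:30991443-30991742, plus strand: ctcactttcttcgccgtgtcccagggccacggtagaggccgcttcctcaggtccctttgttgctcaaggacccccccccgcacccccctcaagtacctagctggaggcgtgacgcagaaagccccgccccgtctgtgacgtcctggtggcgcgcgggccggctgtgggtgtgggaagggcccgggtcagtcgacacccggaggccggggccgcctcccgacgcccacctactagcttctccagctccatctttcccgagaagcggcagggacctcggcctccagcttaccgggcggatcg
Insig1, chr4:8057720-8058019, minus strand: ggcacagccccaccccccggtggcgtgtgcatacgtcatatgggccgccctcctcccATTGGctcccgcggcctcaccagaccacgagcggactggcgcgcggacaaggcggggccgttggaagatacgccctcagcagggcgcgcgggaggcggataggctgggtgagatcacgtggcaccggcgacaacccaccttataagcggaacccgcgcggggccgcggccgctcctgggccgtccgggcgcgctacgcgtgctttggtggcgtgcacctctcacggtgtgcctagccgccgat

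The windows were searched on both strands for 4 sets of letters. CCAAT was in 5 of the 7 windows (Hmgcs1, Idi1, Fdps, Lss and Insig1), against 37.5% of the 33469 rat promoter windows of that length in the table. It was also in 9 of 10 windows of other sterol synthesis enzymes, 4 of 8 of sensing and uptake genes and 4 of 6 of lipogenic genes. In Hmgcs1 its matches begin at positions -188 and -133 relative to the start, in Fdps at -130 and -85, and in Insig1 at -193. GGGCGG, the box bound by Sp1, was in 6 of the 7 windows (all but Idi1), against 33.1% of all windows, and its pair of matches in Dhcr7 overlap each other. CACGTG, an E-box, was in 1 of the 7 (Insig1), against 6.42%. TCACNCCAC, a core form of the sterol regulatory element, was in 0 of the 7, against 1.12%, which says only that these letters are not in these windows. No match of 1 motif overlapped a match of another in the 7 windows.

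Values are FPKM, fragments scaled by transcript length and by the number of mapped fragments. Levels are compared between genes only roughly, since the annotation and the handling of reads that match several genes are not named. Read totals are unknown; the size of the steps between low values gave the value of 1 fragment as 0.721 to 1 in liver and 0.739 to 0.961 in fat, relative to liver PF replicate 1. Between 9522 and 9738 genes reached 1 FPKM in a liver library and 11276 to 11480 in a fat library, and within groups log2 values correlated across genes at 0.986 to 0.996. Tissue labels fitted most markers: Adipoq, Lep and Plin1 were listed at 0 in all livers, and Fabp4 and Lipe stayed under 2 FPKM. Cidec, also listed as an adipocyte marker, read 48.5 to 60.7 FPKM in liver. In fat 9 hepatocyte markers stood at a median of 0.104% to 0.955% of their liver level. Whether a listed 0 means no expression is not known: Scd1 read 0 in all PF fat libraries but 407 to 3477 FPKM in LA fat. The replicates are labelled as biological. In bulk tissue, fewer cells of a type and less RNA per cell cannot be told apart.

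In PF liver the 8 genes ran from 6.38 to 270 FPKM. Fdps, which makes farnesyl diphosphate, was highest at 270 ± 55.2 FPKM (SD, n = 4), followed by Insig1 at 156 ± 95.9, Hmgcs1 at 71.3 ± 25.9, Cyp51 at 59.6 ± 12.8 and Dhcr7 at 22.2 ± 4.87. Idi1 (11.8 ± 3.00), Sqle (9.43 ± 4.48) and Lss (6.38 ± 1.02) were lowest. The order was the same in LA liver, and in both feeds neighbours overlapped in range except Cyp51 and Dhcr7, so the genes form an upper 4 and a lower 4.

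In fat the order differed at the top. Insig1 led at 559 ± 74.4 FPKM in PF fat (SD, n = 4), far above Fdps at 93.8 ± 24.6, Hmgcs1 at 66.3 ± 6.18, Cyp51 at 40.3 ± 7.21 and Dhcr7 at 31.8 ± 6.18. Idi1 (10.9 ± 1.71), Lss (9.69 ± 1.58) and Sqle (9.11 ± 1.02) were again lowest. Under both feeds the ranges of neighbours were separate between Insig1 and Fdps, between Hmgcs1 and Cyp51, and between Dhcr7 and Idi1; in LA fat Sqle stood above Lss, with overlapping ranges.

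**Figure D1:**
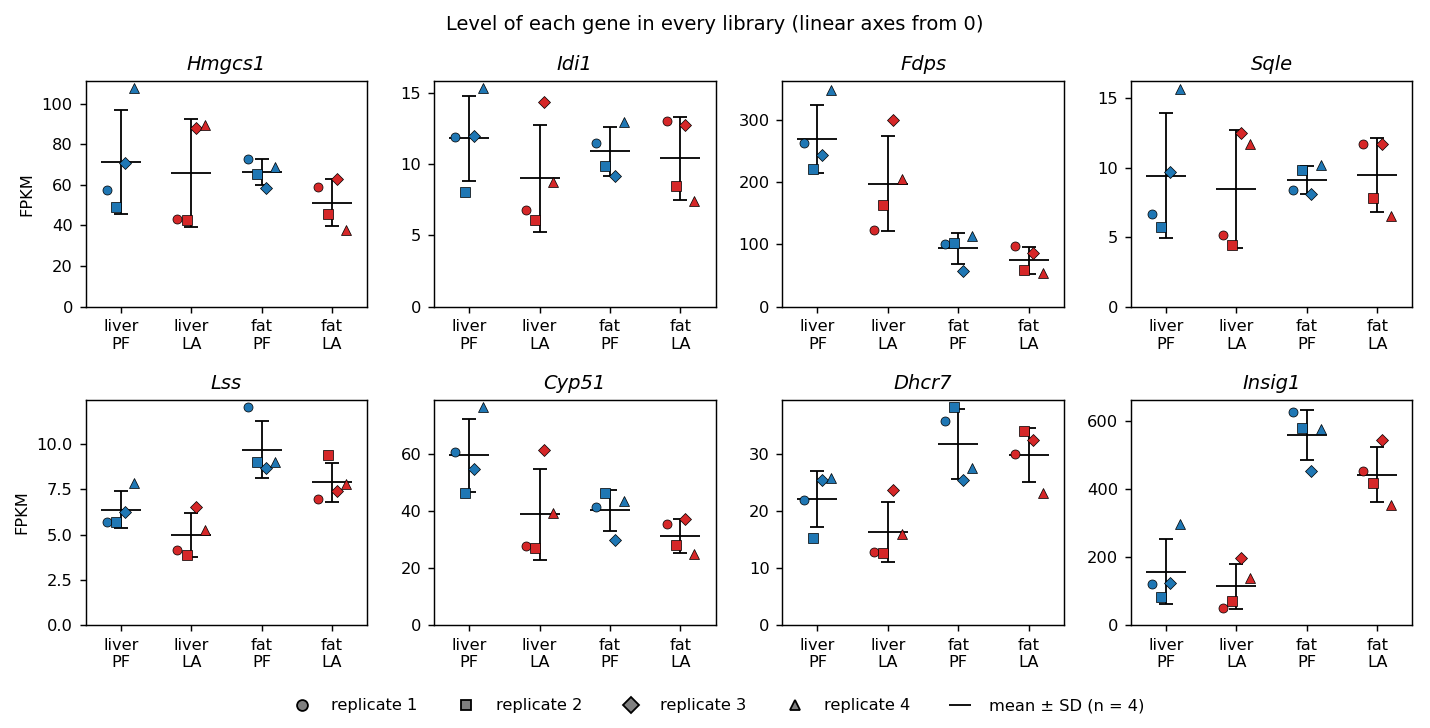
FPKM (linear axes from 0) of each of the 8 genes in all 16 libraries; symbols mark the replicate number, blue PF and red LA, and bars the mean ± SD of 4 libraries. In PF liver replicate 4 (triangle) is the highest for all 8 genes, in LA liver replicate 3 (diamond) for 7 of 8, and Insig1 is higher in every fat library than in any liver library.

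From liver to liver the 8 genes moved together. In PF liver all 8 had their highest level in replicate 4 and their lowest in replicate 2, while 27.1% of all 9710 genes tested were highest in replicate 4 and 28.7% lowest in replicate 2. In LA liver 7 of 8 were highest in replicate 3 (21.4% of all genes), the exception being Hmgcs1, highest in replicate 4 by a narrow margin. The lowest LA library was replicate 2 for 6 genes and replicate 1 for Fdps and Insig1.

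Insig1 had the widest swing. It stood at 120.0, 83.4, 125 and 298 FPKM in PF livers 1 to 4, and at 49.4, 70.2, 196 and 138 in LA livers 1 to 4. PF replicate 4 was thus far above the other PF livers, LA replicates 3 and 4 were above LA replicates 1 and 2, and the feeds overlapped. The highest liver was 3.57 times the lowest under PF and 3.97 times under LA.

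Sqle, which oxidises squalene, followed the same course at a lower level. It read 6.63, 5.74, 9.69 and 15.7 FPKM in PF liver and 5.14, 4.42, 12.5 and 11.7 in LA liver, a spread of 2.73 and 2.83 times. Hmgcs1, the synthase at the head of the chain, read 57.7, 49.0, 70.6 and 108 FPKM in PF liver and 43.3, 42.6, 88.0 and 89.5 in LA liver. In both genes LA livers 3 and 4 lay inside the PF range and LA livers 1 and 2 below it.

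Idi1, the isomerase that supplies the building block for longer chains, was at 11.9, 8.03, 12.0 and 15.4 FPKM in PF liver and 6.79, 6.09, 14.4 and 8.78 in LA liver. Fdps was at 264, 222, 244 and 348 FPKM in PF liver and 124, 163, 301 and 205 in LA liver. For both, LA liver 3 was high and the other 3 LA livers were lower, and LA liver 3 lay inside the PF range. Fdps and Insig1 ranked the 4 LA livers alike, with replicate 1 at the bottom.

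The enzymes after squalene epoxide followed. Lss, which closes the sterol rings, was at 5.70, 5.70, 6.27 and 7.85 FPKM in PF liver and 4.17, 3.84, 6.52 and 5.27 in LA liver. Cyp51, which strips a methyl group from lanosterol, was at 60.8, 46.2, 55.0 and 76.6 FPKM in PF liver and 27.7, 27.2, 61.5 and 39.2 in LA liver. Dhcr7, which performs a closing reduction to cholesterol, was at 22.0, 15.3, 25.5 and 25.8 FPKM in PF liver and 12.9, 12.7, 23.8 and 15.97 in LA liver. For Lss and Cyp51, LA replicates 1, 2 and 4 lay below every PF liver, for Dhcr7 replicates 1 and 2 did, and in all of these LA replicate 3 lay inside the PF range. Across the 7 enzymes the highest PF liver was 1.38 (Lss) to 2.73 (Sqle) times the lowest.

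The shared course was measured by 2 descriptions without a test. Of the 28 pairs among the 8 genes, 16 ranked the 4 PF livers in the same order (57.1%, against 4.31% of all gene pairs), and 11 ranked the 4 LA livers alike (39.3%, against 4.37%). On the log2(FPKM + 1) scale, the share of variance in common, which is the variance of the 8-gene mean over the mean variance of the genes and would be 12.5% for 8 independent genes of equal variance, was 76.9% in PF liver and 84.9% in LA liver. With each library left out in turn it stayed at 68.8% to 80.0% and 73.1% to 89.8%. The mean of the 8 genes deviated from its group mean by 0.52 on the log2 scale in PF replicate 4 and by -0.43 in PF replicate 2, and by 0.64 in LA replicate 3 and -0.47 in LA replicate 1. The mean of all genes deviated by -0.01 to 0.01 in these libraries.

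Over the 8 livers, after removal of the feed means, each gene followed the mean of the other 7 with Pearson's r of 0.89 (Dhcr7) to 0.97 (Insig1), against a median of 0.02 of all genes with the 8-gene mean. These points share library, depth and dissection, and are given as a description.

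**Figure D2:**
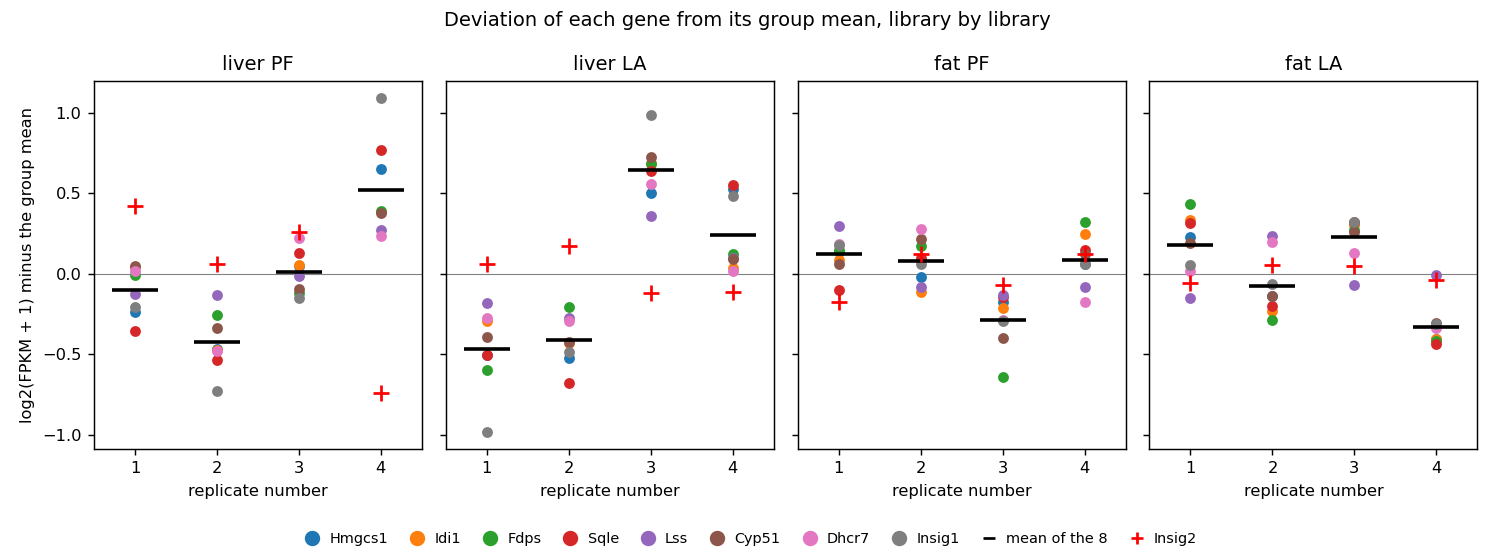
Deviation of log2(FPKM + 1) from the group mean for each of the 8 genes (coloured points), their mean (bar) and Insig2 (plus), by replicate number in the 4 groups. In liver the 8 points of a library lie on the same side of 0 or close together, with the mean between -0.47 and 0.64. Insig2 lies opposite to Insig1 in PF liver replicate 4. In fat the mean lies between -0.33 and 0.23.

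Other enzymes of the chain shared the livers' course in part. Of 11 measured outside the 8, 9 were highest in PF replicate 4 and 9 in LA replicate 3, and 62.7% and 66.1% of their variance was in common. Nsdhl, Msmo1 and Acat2 followed the 8-gene mean most closely over the 8 livers (r of 0.97, 0.96 and 0.95), and Lbr least (0.27). The regulators shared it less evenly: over 11 sensing and uptake genes the variance in common was 21.2% in PF and 20.6% in LA liver, yet 8 of the 11 were lowest in PF replicate 2, where all 8 genes were lowest too. Srebf2, the gene of 1 form of SREBP, followed the 8-gene mean at r of 0.75. Insig2, the sister gene of Insig1, ran the other way, at 102 FPKM in PF replicate 4 against 177 to 228 in the other PF livers (r of -0.62 with the 8-gene mean). Lipogenic genes, which answer to another SREBP form, were highest in PF replicate 4 for 5 of 10 and lowest in PF replicate 2 for 7 of 10. Their variance in common was 45.6% in PF liver. In LA liver 6 of 10 were highest in replicate 3, with 29.5% of variance in common. Thrsp and Acly followed the 8-gene mean at r of 0.83 and 0.78, whereas Scd1 (-0.16) and Srebf1 (-0.06) did not.

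Hepatocyte markers summed to 46325 FPKM in PF replicate 4 and 57335 in PF replicate 2, with 47980.5 in replicate 1 and 46428 in replicate 3. In LA replicate 3 they summed to 41387, against 35977 to 45139 in all LA livers. These markers did not move as a set: their r with the 8-gene mean over the livers ran from -0.67 (Fgb) to 0.26 (Apoa2). Macrophage markers, of which Marco and Adgre1 were listed at 0 in every library, summed to 77.2 to 88.5 FPKM in PF and 107 to 150 in LA liver. The part of cell makeup in the shared course was not tested.

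Lipoic acid feed against pair-feeding in liver asks whether the chain differs with the supplement at matched intake. The 8 genes all had a lower mean under LA, by 0.14 to 0.66 on the log2(FPKM + 1) scale, and 0 of 8 passed limma's test at a Benjamini-Hochberg adjusted p under 0.05, where 4.48% of the 9710 genes tested passed. At an unadjusted p under 0.05 limma gave 2 of the 8 (Lss and Cyp51), and 1955 of the 9710 genes tested. The groups overlapped for all 8, where 12.3% of all genes did not overlap. The median log2 fold change of the 8 was -0.42, against -0.0020 for all genes.

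Cyp51 had the largest difference, from 59.6 ± 12.8 FPKM in PF to 38.9 ± 16.1 in LA liver (SD, n = 4), a log2 fold change of -0.66 with an SE of 0.24 and a limma adjusted p of 0.16. Without LA replicate 3, the library with the highest levels in that group, Cyp51 passed with a log2 fold change of -0.90 and an adjusted p of 0.028. Over all alternatives its adjusted p ranged from 0.028 to 0.35. Fdps went from 270 ± 55.2 to 198 ± 76.2 FPKM, with a log2 fold change of -0.50 (SE 0.24, limma adjusted p 0.27).

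Dhcr7 averaged 16.3 ± 5.19 FPKM in LA liver, a log2 fold change of -0.44 (SE 0.21, limma adjusted p 0.27), and Lss 4.95 ± 1.21, a log2 fold change of -0.32 (SE 0.15, limma adjusted p 0.25). Idi1 (9.02 ± 3.77 FPKM) and Insig1 (113 ± 66.9 FPKM) had log2 fold changes of -0.40 (SE 0.24) and -0.49 (SE 0.45), with limma adjusted p of 0.40 and 0.61. For Insig1 the SE was nearly as large as the difference.

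Hmgcs1 (65.9 ± 26.5 FPKM in LA liver) and Sqle (8.44 ± 4.25) differed least, with log2 fold changes of -0.14 (SE 0.30, limma adjusted p 0.85) and -0.17 (SE 0.35, limma adjusted p 0.84). Both signs turned without PF replicate 4, to 0.08 and 0.09, and without LA replicate 2, to 0.04 and 0.06; that of Hmgcs1 also turned without LA replicate 1, to 0.03. In both genes the SE was larger than the difference.

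The other enzymes of the chain gave a like picture in liver. Of 11 tested, 10 had a lower mean under LA and 1 a higher one, 0 passed limma's adjusted test and 5 had an unadjusted p under 0.05; their median log2 fold change was -0.41. The count depends on single libraries: without LA replicate 3 limma called 3 of the 11, all lower, Nsdhl (adjusted p 0.028), Sc5d (adjusted p 0.033) and Pmvk (adjusted p 0.041). Without PF replicate 2 it called Nsdhl alone (adjusted p 0.042). Nsdhl, a decarboxylating dehydrogenase of the post-lanosterol steps, came nearest (244, 198, 264 and 289 FPKM in PF liver, 138, 146, 215 and 173 in LA liver; log2 fold change -0.57, SE 0.15, limma adjusted p 0.061). Only LA replicate 3 reached the PF range. Acat2, which condenses acetyl-CoA, differed by -0.85 (limma adjusted p 0.14) and Pmvk, a kinase of mevalonate metabolism, by -0.72 (limma adjusted p 0.090).

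**Figure D3:**
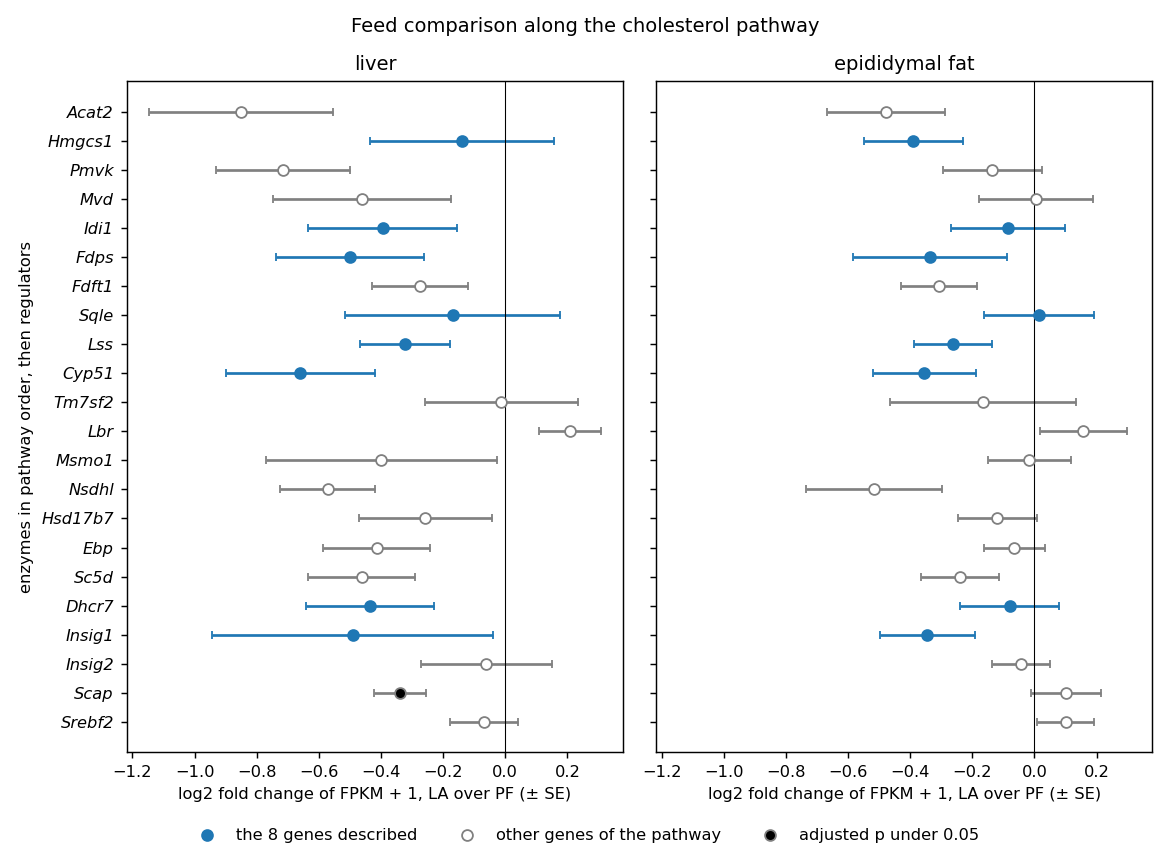
Log2 fold change of FPKM + 1, LA over PF, with its SE, for enzymes in pathway order followed by regulators, in liver (left) and fat (right) on a shared axis; blue marks the 8 genes and black fill an adjusted p under 0.05. In liver all 8 points lie left of 0, and Scap is the only filled point.

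Among 11 sensing and uptake genes in liver 1 passed, Scap, the SREBP escort. It read 13.5, 12.1, 13.5 and 15.1 FPKM in PF liver and 11.1, 9.59, 10.0 and 11.2 in LA liver, without overlap, and fell by 0.34 on the log2 scale (SE 0.08, limma adjusted p 0.0495). The call sits at the threshold: the adjusted p ranged from 0.039 to 0.14 over the alternatives, and of the 8 fits that left out a library 1 (without PF replicate 2) passed. Srebf2 had a log2 fold change of -0.07 (limma adjusted p 0.79) and Insig2 of -0.06 (limma adjusted p 0.91).

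Of 5 tested genes of the non-sterol branches, Dhdds, a subunit of the enzyme that lengthens isoprenoids for dolichol, passed. It rose from 24.8 to 34.7 FPKM over the PF livers to 37.6 to 55.7 over the LA livers, a log2 fold change of 0.72 (SE 0.13, limma adjusted p 0.014, or 0.051 without LA replicate 2). Of 8 tested genes of efflux and esterification 0 passed limma's adjusted test and 3 had an unadjusted p under 0.05. For comparison, 5 of 10 lipogenic genes fell in the same livers, Thrsp, Acly, Elovl6, Scd1 and Pnpla3, with log2 fold changes of -0.79 to -3.76. In these livers hepatocyte markers summed to less under LA (35977 to 45139 FPKM, against 46325 to 57335) and macrophage markers to more, as given above. Ttr had the highest level of the 9 hepatocyte markers, with a mean of 21245 FPKM in PF and 16838 in LA liver. The 9 were not of 1 kind: 7 had a lower mean under LA, 2 a higher one, and 1 passed limma's adjusted test. The part of both marker sets in the feed comparison was not tested.

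In fat, 7 of the 8 genes had a lower mean under LA and Sqle did not, and 0 of 8 passed limma's adjusted test, where 0.0174% of the 11501 genes tested passed. At an unadjusted p under 0.05 limma gave 2 of the 8 (Hmgcs1 at 0.035 and Insig1 at 0.0495), and 451 of the 11501 genes tested. Every one of the 8 overlapped between feeds, where 2.08% of all genes did not. Their median log2 fold change was -0.30, against 0.01 for all genes.

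Hmgcs1 was at 72.8, 65.2, 58.3 and 69.0 FPKM in PF fat and 59.0, 45.6, 62.8 and 37.6 in LA fat. LA replicates 1 and 3 reached the lowest PF library and LA replicates 2 and 4 lay below it. The log2 fold change was -0.39 (SE 0.16, limma adjusted p 0.9997).

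Insig1 was at 627, 578, 453 and 577 FPKM in PF fat and 454, 418, 545 and 352 in LA fat, a log2 fold change of -0.34 (SE 0.15, limma adjusted p 0.9997). PF replicate 3 was as low as LA replicate 1, and LA replicate 3 reached toward the other PF libraries. Cyp51 was at 41.6, 46.4, 29.9 and 43.4 FPKM in PF fat and 35.5, 28.0, 37.1 and 24.8 in LA fat, a log2 fold change of -0.35 (SE 0.17, limma adjusted p 0.9997). Here too PF replicate 3 lay among the LA libraries and the other PF libraries above them.

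Fdps was at 101, 102, 58.0 and 114 FPKM in PF fat and 97.4, 58.7, 86.8 and 53.5 in LA fat (log2 fold change -0.34, SE 0.25), with PF replicate 3 again low. Lss was at 12.0, 9.03, 8.68 and 9.00 FPKM in PF fat and 6.95, 9.41, 7.41 and 7.78 in LA fat (log2 fold change -0.26, SE 0.13). Only LA replicate 2 of Lss reached the PF range. Idi1, Sqle and Dhcr7 had log2 fold changes of -0.09, 0.01 and -0.08, all with limma adjusted p of 0.9997, and each turned its sign when 1 or more single libraries were left out.

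In fat fewer pairs shared an order than in liver, a difference that was not tested. All 8 were lowest in PF replicate 3 (29.9% of all genes), but their highest PF libraries were divided between replicate 1 (Hmgcs1, Lss, Insig1), replicate 2 (Cyp51, Dhcr7) and replicate 4 (Idi1, Fdps, Sqle). Only 2 of 28 pairs ranked the 4 PF libraries alike (7.14%, against 5.07% of all gene pairs), and the variance in common, 58.6%, was 2.64% without PF replicate 3. In LA fat 7 of 8 were lowest in replicate 4 (27.4% of all genes), and 7 of 28 pairs ranked alike (25.0%, against 7.13%). The variance in common of the 8 genes there was 66.7%, or 41.5% without replicate 4. For 9 lipogenic genes, Scd1 left out, the variance in common was 66.5% in PF and 61.6% in LA fat.

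Over the 8 fat libraries, after removal of the feed means, Insig1, Cyp51 and Hmgcs1 followed the mean of the other 7 most closely (r of 0.94, 0.94 and 0.93), Dhcr7 at 0.59 and Lss did not (r of -0.09). The swing of Insig1 was narrower than in liver: its highest fat library was 1.39 times the lowest under PF and 1.55 times under LA. Under PF the swing of Fdps was wider in fat (1.97 times) than in liver (1.57 times). That of Lss was nearly the same in both (1.39 and 1.38 times). Every other swing of the 8 genes was narrower in fat. PF replicate 3, in which the 8 genes were low, also had the lowest summed level of 6 adipocyte markers among PF fat (32371 FPKM, against 33586 to 37285). Most of that sum was Fabp4, at 23358 FPKM there, which followed the 8-gene mean over the fat libraries at r of 0.83. The markers were not of 1 kind, since Plin1, Lep and Lipe ran the other way at r of -0.28, -0.38 and -0.46. Lipogenic genes were low there as well, 0.80 below their PF mean on the log2 scale. In LA replicate 4 the adipocyte markers summed to 34286 FPKM, against 34226 to 39704 in LA fat. Mesothelium markers were highest in the same libraries, at 261 FPKM in PF replicate 3 (35.1 to 261 in PF fat) and 293 in LA replicate 4 (101 to 293 in LA fat). Replicate 2 came close under both feeds, at 256 FPKM in PF and 279 in LA fat. In those libraries the 8-gene mean deviated from its group mean by only 0.08 and -0.08 on the log2 scale. Traces of hepatocyte markers moved with the 8 genes: all 9 had r of 0.71 to 0.84 with the 8-gene mean in fat. They summed to 41.6 FPKM in LA replicate 4, against 132 to 389 in the other LA fat libraries, and to 227 in PF replicate 3, against 191 to 431 in the other PF ones. The part of these differences in the course of the 8 genes was not tested.

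Other genes of the system in fat did not pass either. Of 11 further enzymes, 9 had a lower mean under LA, 0 passed limma's adjusted test and 3 had an unadjusted p under 0.05 (Acat2, Fdft1 and Nsdhl, with log2 fold changes of -0.48, -0.31 and -0.52). Of 11 sensing and uptake genes 0 passed and 1, Scarb1, a lipoprotein receptor that imports cholesteryl ester, had an unadjusted p under 0.05 (log2 fold change -0.26). Macrophage markers summed to 181 to 218 FPKM in PF and 214 to 308 in LA fat, and their part in the fat comparison was not tested.

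The feed effect was compared between tissues with an interaction term over all 16 libraries. By limma 0 of 8 genes passed, where 0.381% of 12079 genes did. An unadjusted p under 0.05 was found for 0 of the 8 and for 991 of the 12079. The difference of log2 fold changes, liver minus fat, ran from -0.36 (Dhcr7, SE 0.28, limma adjusted p 0.86) to 0.25 (Hmgcs1, SE 0.37, limma adjusted p 0.96). For Dhdds it was 0.69 (SE 0.18, limma adjusted p 0.14), and without LA liver replicate 1 it was 0.81 and passed (adjusted p 0.026).

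Between tissues, Fdps was higher in liver and Insig1 higher in fat under both feeds. Fdps had a log2 fold change, liver over fat, of 1.54 in PF rats (SE 0.21, limma adjusted p 3.33e-05) and 1.37 in LA rats (SE 0.27, limma adjusted p 0.000791). Insig1 had one of -1.99 in PF rats (SE 0.31, limma adjusted p 0.000108) and -2.14 in LA rats (SE 0.37, limma adjusted p 0.000295). These 2 of 8 passed at an adjusted p under 0.05 and a log2 fold change over 1 in size, where 47.4% of 11492 genes passed in PF and 46.4% of 11568 in LA rats. By direction, 11.1% (PF) and 10.5% (LA) of all genes passed as higher in liver, like Fdps, and 36.3% and 36% as lower in liver, like Insig1. Fdps, Lss and Insig1 did not overlap between the tissues under either feed, where 80.2% (PF) and 79.9% (LA) of all genes did not. That is a smaller share than among all genes, a difference that was not tested.

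Before centring, Lss had log2 fold changes of -0.53 (PF) and -0.59 (LA) and Dhcr7 of -0.51 and -0.87, all with limma adjusted p under 0.05 but short of the size required. Without LA liver replicate 3, Dhcr7 reached -1.05 in LA rats and passed (limma adjusted p 0.000105). Cyp51 was 0.55 higher in liver of PF rats (limma adjusted p 0.010) and 0.24 in LA rats (limma adjusted p 0.37). Hmgcs1, Idi1 and Sqle differed by -0.23 to 0.29 before centring, within their error.

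The median of all genes lay at -0.66 (PF) and -0.65 (LA) in this comparison. After centring each library on its median, Fdps was at 2.21 and 2.04, Insig1 at -1.32 and -1.47, and Cyp51 passed in PF rats at 1.22. Hmgcs1, Idi1 and Sqle were then at 0.72, 0.76 and 0.63 in PF rats (limma adjusted p 0.0066, 0.0017 and 0.030), short of the size required. In LA rats they were at 0.96, 0.45 and 0.44 (limma adjusted p 0.0090, 0.14 and 0.22). The signs of Lss, under both feeds, of Sqle, under both feeds, of Idi1 under LA and of Dhcr7 under PF turned with centring. All calls divided into 1273 higher and 4174 lower in liver without centring and 2064 and 2253 with it in PF rats, and into 1211 and 4161 against 1985 and 2292 in LA rats.

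Of 11 enzymes outside the 8, 5 passed as higher in liver of PF rats and 1 as lower. Tm7sf2, a sterol reductase, differed by 3.36, Nsdhl by 2.96, Ebp by 2.71, Sc5d by 2.50 and Msmo1 by 1.13 on the log2 scale, all with limma adjusted p at or under 0.000372. Lbr, a nuclear membrane protein with sterol reductase activity, had a log2 fold change of -1.92. With centring 7 of the 11 passed as higher and 1 as lower. Msmo1 lost its call without PF liver replicate 4, where its log2 fold change was 0.93, short of the size required. Insig2 was 2.66 higher in liver, so the Insig pair was opposite: Insig1 at 156 ± 95.9 FPKM in PF liver and 559 ± 74.4 in PF fat, Insig2 at 102 to 228 in PF liver and 23.1 to 28.6 in PF fat.

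**Figure D4:**
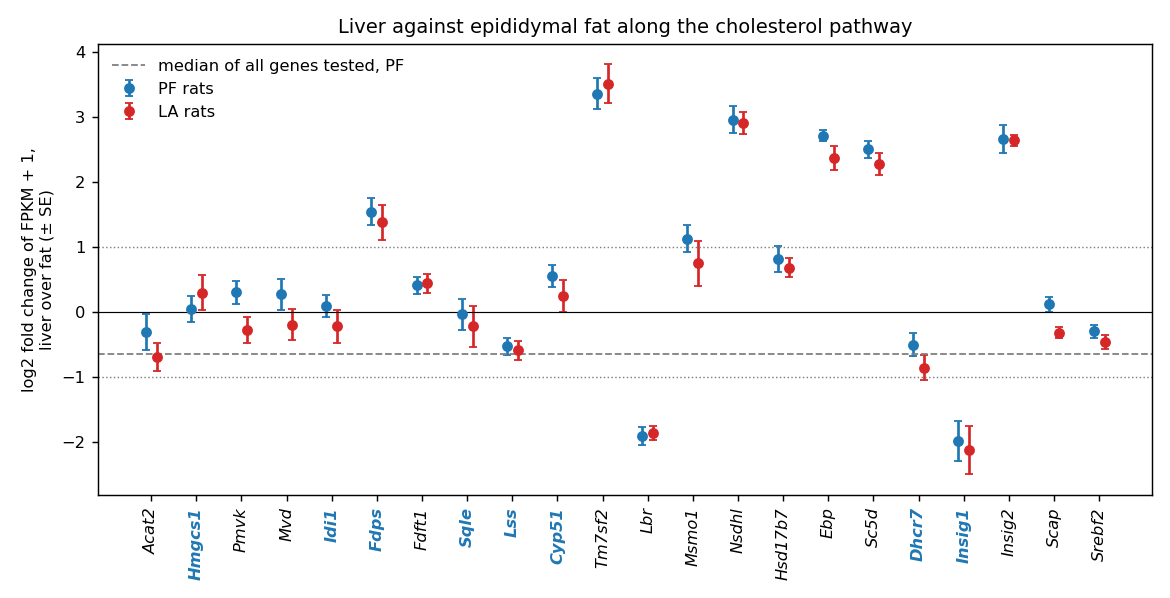
Log2 fold change of FPKM + 1, liver over fat, with its SE, in PF (blue) and LA (red) rats, along the pathway; the names of the 8 genes are in blue, the dashed line is the median of all genes tested in PF rats and dotted lines mark a change of 1 in size. Of the 8, Fdps lies above 1 and Insig1 below -1 under both feeds, while Tm7sf2 reaches 3.36 in PF rats.

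The genes outside these lists most like the 8-gene mean, by Pearson's r of deviations from the feed means over 8 libraries, were in liver Fpgt (0.98), Kifc3 (0.96), Ankrd39 (0.96), Fbxo3 (0.96) and Fggy (0.95). In fat they were Bre (0.99), Marveld1 (0.99), Fars2 (0.99), Fam82a2 (0.98) and Akr1cl2 (0.98). No gene was on both lists. These values are a description.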

How the data were processed

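Per the labels' protocols, TRIzol extraction was followed by RNeasy clean-up, and TruSeq V2, a kit that keeps no strand, gave the libraries. Reads from overlapping antisense genes therefore cannot be told apart. CASAVA 1.8.2, TopHat and Cuffdiff were used, per the submitters' processing notes; the sources used here do not name the build, annotation or settings. The deposited values are FPKM, 1 value per gene symbol and library, made by the authors. They hold no counts. How reads that match several genes or pseudogenes were assigned is likewise not named there.

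The test was limma 3.58.1 (R 4.3.3, trend option on) applied to log2(FPKM + 1). Genes entered a fit when 4 or more of its libraries reached 1 FPKM, and p-values were adjusted over those genes by Benjamini-Hochberg. The added 1 makes fold changes of low genes too small. Each tissue was fitted alone, the difference of feed effects over 16 libraries, and libraries were treated as independent. The threshold was an adjusted p of 0.05; for liver against fat the log2 fold change had to exceed 1 in size as well. Each choice was varied: 0.1 as the pseudocount, the filter dropped, libraries centred on their medians, replicate numbers as a block, 1 model for all 16 libraries, and every library omitted in turn. No replicates held identical values. The fit was tested on simulated data. Set log2 changes of 0.5 were recovered for 61.2% of genes in liver, 29.9% in fat and 26.9% in the difference between tissues. For changes of 1 these shares were 92.5%, 77.6% and 73.1%, and false calls numbered 10, 9 and 9. Changes of 0.5 or less could thus be missed, most often in fat and in the difference between tissues.

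All 8 genes were named in every comparison, any measured gene of the pathway lists could be named, and in each tissue the 5 genes most like the 8-gene mean were named. The genes, lists and markers were chosen with earlier results of these data known. Some genes of these lists are not reported here. Mvk, Pdss1 and Kdr were not matched and have no values here, and only the promoter window of Mvk was counted. Sc5d, Msmo1, Npc1, Nceh1, Adgre1 and Plin1 are listed under older symbols or synonyms. Figures were drawn with matplotlib 3.10.9.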

Additional observations from a re-analysis of the deposited data

Results flagged for a closer look

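In 100 groups of 4 libraries (24 genes and the 8-gene mean, in 4 groups each), 5 had an end value set apart from the other 3 by a gap above Dixon's 95% critical value for 4 values, taken as a share of the range; about 1 group in 20 does so by chance. Lss in PF fat replicate 1 was at 12.0 FPKM, against 8.68 to 9.03 in the other PF fat libraries. Acat2 in PF liver replicate 4 was at 39.6 FPKM, against 15.1 to 18.9. Lbr was at 1.86 FPKM in PF liver replicate 4, against 1.24 to 1.35, and at 2.04 in LA liver replicate 1, against 1.70 to 1.76. The mean log2(FPKM + 1) of the 8 genes in PF fat replicate 3 was 5.01, against 5.37 to 5.42.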

How the results depend on the processing

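Of 168 values of comparisons recomputed under alternatives, 157 stayed within the bounds set, and of 762 values of single genes 709 did. Both totals include the replicate block in the fits of liver against fat. There the counts of genes called were identical with and without it, so those values are no check. No alternative made a member pass in fat or in the difference between tissues. In liver the number that passed was 0 to 1 with a library left out, Cyp51 passing without LA replicate 3. Between tissues the median of the 8 genes in PF rats was -0.00636 with a pseudocount of 0.1, 0.67 with median centring and -0.24 to 0.17 with a library left out; in LA rats centring gave 0.45. Centring also turned Sqle in fat (-0.0069), Sqle, Lss and Dhcr7 between tissues in PF rats (0.63, 0.14 and 0.16) and Idi1, Sqle and Lss in LA rats (0.45, 0.44 and 0.077). It moved the median of all genes between tissues to 0.02 under both feeds, and made 4317 genes pass in PF rats against 5447.

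With a library left out, signs turned within these ranges. In liver they were -0.31 to 0.079 for Hmgcs1, -0.38 to 0.086 for Sqle, -0.31 to 0.080 for Insig2 and -0.15 to 0.013 for Srebf2. In fat they were -0.093 to 0.16 for Sqle, -0.18 to 0.033 for Dhcr7 and -0.20 to 0.051 for Idi1. Between tissues they were -0.17 to 0.20 for Hmgcs1, -0.30 to 0.14 for Sqle and -0.040 to 0.25 for Idi1 in PF rats, and -0.44 to 0.00074 for Sqle and -0.00021 to 0.38 for Cyp51 in LA rats. The variance in common ranged from 68.8% to 80.0% (PF liver), 73.1% to 89.8% (LA liver), 2.64% to 68.3% (PF fat) and 41.5% to 77.5% (LA fat). The genes called over all of liver ranged from 208 (without LA replicate 2) to 404 with a library left out, against 435, and in the difference between tissues from 19 to 60, against 46, and were 22 with no filter. The cause was not tested, except that these fits hold fewer libraries.

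No source says that replicate numbers pair the libraries, and same-numbered deviations did not correlate at over 0.1 in every pair. Between feeds they correlated at -0.003 to 0.152 in liver and -0.426 to -0.057 in fat, with 1 of 4 and 0 of 4 PF libraries closest to their own number. Between liver and fat they correlated at -0.033 to 0.291 under PF and -0.225 to 0.111 under LA, with 3 of 4 and 2 of 4 livers closest to their own number, which is a hint from the data and not the design. With the replicate block the counts between tissues were identical to those without it, 5447 genes in PF and 5372 in LA rats. A fit with added terms should rarely give identical counts, so they are not used as a check of pairing. In liver 476 genes passed with the block and in fat 1, against 435 and 2. The members that passed were 0 in liver, 0 in fat and 0 for the difference, and the members' median in liver was -0.42. Acat2 and Nsdhl passed with it in liver, at adjusted p of 0.04996 and 0.029.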
